A study of Homo sapiens with 2 samples.

Results

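The genes described here are 50 components of inflammatory signaling: the subunits of the transcription factor NF-κB, their inhibitors, NF-κB feedback genes, chemokines, cytokines and their receptors, and the Toll-like receptors (TLRs) with their adaptors. They were taken as a fixed list of symbols, chosen with earlier results of these data known. Each symbol matched 1 entry among the 60623 gene entries that were counted. The RNA came from HepG2, an established human hepatocellular carcinoma cell line, with 1 library per group. In the group called FFA, the cells received 1 mM free fatty acids (oleic and palmitic acid bound to albumin) for 24 h to load them with lipid. In the group called FFA + 9-cis-RA, they received the same fatty acids together with 10 μM 9-cis-retinoic acid, a ligand of the nuclear receptors RXR and RAR. Cells without fatty acids were not analysed here, so both groups carry the fatty acid load.

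NF-κB is a dimer of Rel family proteins that IκB proteins hold in the cytoplasm of resting cells. TLRs, the interleukin-1 (IL-1) receptor and the tumor necrosis factor (TNF) receptors signal through adaptors and kinases that cause IκB to be degraded, after which the dimer enters the nucleus. Its target genes include chemokines, which attract leukocytes, and also its own inhibitors, so that the response is limited by feedback. In the liver, macrophages and hepatocytes both respond to this pathway, and hepatocytes answer IL-6 through the transcription factor STAT3.

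The FFA library held 60821539 fragment counts on genes and the FFA + 9-cis-RA library 57669670. As a check of the treatment label, CYP26A1, a retinoic acid hydroxylase gene induced by retinoids, had 4 counts in the former and 709 in the latter. Hepatocyte transcripts were abundant in sum. The 8 markers summed to 15812 CPM (counts divided by the library total and scaled to 1e+06) in FFA and 14918 CPM in FFA + 9-cis-RA. Single markers were uneven in level and direction. ALB, AHSG, TF and TTR had log2 fold changes of -0.70, -0.89, -0.19 and -0.27. FGB had 0.84, and APOA1, APOB and SERPINA1 had 0.04, 0.05 and 0.04. TTR was low, with 341 counts in FFA and 278 in FFA + 9-cis-RA. Markers of other liver cell types were scarce by comparison. The sum over the 8 macrophage and monocyte markers was 97.9 and 58.8 CPM, nearly all of it from the lysozyme gene LYZ with 5883 and 3332 counts. The leukocyte gene PTPRC had 0 counts in both libraries, and MARCO, CSF1R and ITGAM had at most 9. CD163 had 34 counts in FFA and 24 in FFA + 9-cis-RA, and AIF1 had 20 and 11. LYZ had a log2 fold change of -0.79, while CD68 went the opposite way with 5 and 15 counts. The 6 endothelial markers summed to 14.3 and 6.64 CPM, the 6 stellate cell and fibroblast markers to 20.4 and 14.0 CPM, and the 6 lymphocyte markers to 7.91 and 8.22 CPM. Among the defining markers, KDR, DCN, MS4A1 and CD2 also stood at 0 in both libraries. The part of these genes in the results was not tested. HepG2 is a cell line and not liver tissue, so these markers describe transcripts in the culture and not numbers of other liver cells. In bulk RNA, fewer expressing cells and less RNA per cell cannot be told apart.

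The promoter letters that NF-κB is known to bind are shown first, for some of the members that carry them. A 250-base window before the RefSeq gene start (GRCh38.p14) was found for 43 of the 50 members. The windows were searched on both strands for the κB consensus, the short sequence that NF-κB recognizes. It was present in 17 of these 43 windows (39.5%), against 9.96% of the 35116 windows of all genes. The list was made of NF-κB pathway genes and known targets, so the larger share may follow from that choice alone. The member that differed most of those compared below, IL1RN, had no match, and the next, LY96, had no window. Of the 17 members with a match, 5 were neighbouring CXC chemokine genes on chromosome 4 that shared the same letters. The 30 bases around the site are printed 5′ to 3′ on each gene's own strand, with the match in capitals. Overlapping matches on the 2 strands give a run of 11 capitals. In the GENCODE annotation (release 29), the sites of CXCL2, CXCL3, CXCL5, CXCL6 and TNFAIP3 lie wholly inside annotated exons of the same gene, and that of CXCL1 does not. The CXCL3 site also lies wholly inside the span of its gene as counted. Those of CXCL1, CXCL2, CXCL5 and CXCL6 lie outside the spans of their genes as counted. The CXC sites were chosen for printing after the values were seen, except that of CXCL2.
CXCL2 (chr4:74099253-74099282, minus strand): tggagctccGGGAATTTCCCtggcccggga
CXCL1 (chr4:73869305-73869334, plus strand): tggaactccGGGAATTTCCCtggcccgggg
CXCL3 (chr4:74038748-74038777, minus strand): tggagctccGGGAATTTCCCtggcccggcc
CXCL5 (chr4:73998748-73998777, minus strand): atgagttcaGGGAATTTCCCcagcatccca
CXCL6 (chr4:73836579-73836608, plus strand): ctgagttcaGGGAATTTCCCcagcatccca

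The CXCL2 site shared 28 of 30 bases with that of CXCL1, 28 with that of CXCL3 and 19 each with those of CXCL5 and CXCL6. The 5 genes ranged from 0 counts in both libraries to 85 in one of them, as given below. TNFAIP3, BIRC3 and CCL20, the other members with a match whose counts differed most, had the following sequences before their RefSeq starts. That of TNFAIP3 is a 30-base stretch with 2 separate matches, whose last 4 bases lie inside the span of the gene as counted. For BIRC3 and CCL20 the whole stretch upstream of the first annotated exon in the window is shown. The window of CCL20 lies in an intron of a longer transcript in the annotation used for counting.
TNFAIP3 (chr6:137867188-137867217, plus strand): ctttGGAAAGTCCCgtGGAAATCCCCgggc
BIRC3 (chr11:102317234-102317449, plus strand): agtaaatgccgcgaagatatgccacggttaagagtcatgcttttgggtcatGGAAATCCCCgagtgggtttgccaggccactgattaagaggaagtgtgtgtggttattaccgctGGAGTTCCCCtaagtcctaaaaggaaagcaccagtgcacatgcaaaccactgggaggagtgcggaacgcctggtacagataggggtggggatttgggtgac
CCL20 (chr2:227813592-227813821, plus strand): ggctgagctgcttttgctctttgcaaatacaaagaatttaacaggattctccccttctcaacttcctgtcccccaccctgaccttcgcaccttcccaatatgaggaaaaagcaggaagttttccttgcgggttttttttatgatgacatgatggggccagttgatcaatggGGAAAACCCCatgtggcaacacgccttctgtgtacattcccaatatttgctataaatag

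A match describes letters and not binding, and a window without a match says nothing about the factor. Of the 12 members with a match that had enough counts to compare, 2 were higher in FFA + 9-cis-RA and 7 lower beyond counting error, with a median log2 fold change of -0.17. Among all compared genes, 22.5% were higher and 25.7% lower by the same rule. Of the 23 compared members whose window held no match, 5 were higher and 8 lower, with a median of 0.01. These numbers moved with the scaling: when library totals set the scale, 2 were higher and 6 lower with a match, and 11 were higher and 6 lower without one. The 7 members without a window were RELB, NFKBIE, CCL2, CX3CL1, IL18, LY96 and MMP9.

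The comparison asks how these genes differed when fatty acid loaded cells also received 9-cis-RA. DESeq2 size factors (median of ratios) set the scale, and each log2 fold change is that of FFA + 9-cis-RA against FFA after a pseudocount of 1 was added to the normalized counts. A minimum of 10 counts, summed over the libraries, left 41 members and 20431 genes in all to compare. Each value carries an exact 95% interval for the split of its counts between the libraries. The interval covers counting error only. Replicate error could not be measured from single libraries and no test was run, so every difference below is between 2 libraries and not shown to be one between the conditions.

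Few members differed by much, and those that did pointed both ways. In all, 6 of the 41 compared members (14.6%) were past 1 in size on the log2 scale, against 8.28% of all compared genes. IL1RN, LY96 and CXCL2 were below -1 on the log2 scale, where 4.90% of all compared genes lay. TNF, TLR6 and CD14 were above 1, where 3.37% of all compared genes lay, and these 3 had at most 36 counts in either library. The intervals of TLR6 and CD14 held 0 (-0.02 to 2.50 for each). With a pseudocount of 5, 0 members were above 1 and 2 were below -1. Members were also counted by their interval, a count added after the values had been seen. The interval lay below 0 for 19 of the 41 compared members (25.7% of all compared genes) and above 0 for 7 (22.5%). The other 15 members had intervals that held 0. This balance depended on the scaling: with total-count scaling 16 members lay below and 13 above, so that the share of lower members among those clear of 0 was 55.2% in place of 73.1%. The 3 members whose interval was then no longer below 0 were NFKBIZ, TNIP1 and IL6R, and the 6 whose interval was then above 0 were RELA, TRAF1, LTBR, STAT3, TLR6 and CD14. The members were also counted more deeply than most genes, which narrows the intervals. The median log2 fold change was -0.08 for the members and -0.02 for all compared genes, and it was -0.03 for the members with total-count scaling.

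A difference of at least 0.5 on the log2 scale with an interval clear of 0 was found for 10 members. Of these, 7 were lower, namely TNFAIP3, BIRC3, CXCL2, CCL20, IL1RN, TLR2 and LY96, where 8.45% of all compared genes met the same rule. The other 3 were higher, namely CXCL8, TNF and SOCS3, against 4.33% of all compared genes. Another 28 compared members lay within 0.5 of 0, among them 22 of the 25 members with at least 1000 counts. The exceptions at that depth were TNFAIP3 and CCL20, which were lower, and CXCL8, which was higher.

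**Figure D1:**
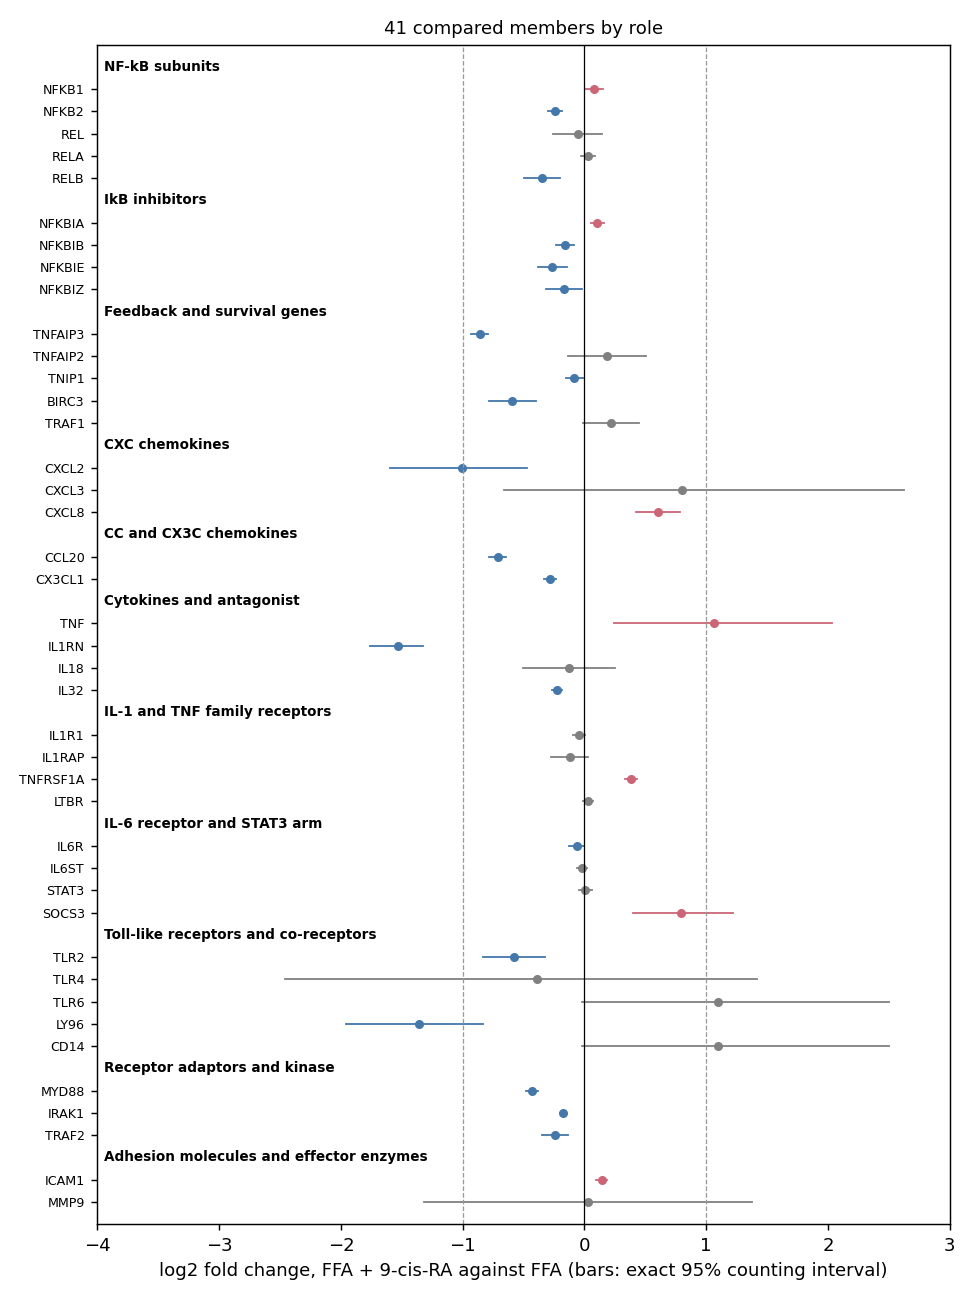
Log2 fold change of FFA + 9-cis-RA against FFA for the 41 compared members, grouped by role. Points are values from 1 library per group, bars are exact 95% counting intervals, and colors mark intervals above 0 (red, 7 members), below 0 (blue, 19 members) or holding 0 (gray, 15 members). The longest intervals belong to genes with few counts, such as TLR4 and CXCL3.

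The 5 NF-κB subunits were all expressed, with a median log2 fold change of -0.05. The interval lay above 0 for 1 of them (22.5% of all compared genes) and below 0 for 2 (25.7%). RELA, the main activating subunit, had 5186 counts in FFA and 5188 in FFA + 9-cis-RA, and its log2 fold change was 0.03 (95% interval -0.03 to 0.08). NFKB1, the precursor of the p50 subunit, had 2864 and 2960 counts, and its value of 0.08 barely cleared 0 (interval 0.00059 to 0.15). The subunits of the alternative pathway were both lower. NFKB2, the precursor of p52, had 4794 and 3978 counts, a value of -0.24 (interval -0.30 to -0.18). Its partner RELB had 851 and 656 counts, a value of -0.35 (interval -0.50 to -0.20). REL, a subunit best known from lymphocytes, had 415 and 392 counts with an interval that held 0. Another annotated gene covers 43.3% of the exonic bases of REL on the same strand, and reads shared by both were not counted.

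The 4 IκB inhibitors had a median log2 fold change of -0.16, and none lay as far as 0.5 from 0. NFKBIA encodes IκBα, the inhibitor that NF-κB itself induces, and had 5922 and 6254 counts, a value of 0.11 (interval 0.05 to 0.16). It was the one inhibitor with an interval above 0 (22.5% of all compared genes), and the other 3 had intervals below 0 (25.7%). NFKBIB, encoding IκBβ, had 3060 and 2687 counts, a value of -0.16. NFKBIE, encoding IκBε, had 1295 and 1057 counts, a value of -0.27. NFKBIZ, which encodes the nuclear cofactor IκBζ, had 803 and 701 counts, a value of -0.17 (interval -0.32 to -0.02).

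Of the 5 feedback and survival genes, 3 had intervals below 0 (25.7% of all compared genes) and 2 had intervals that held 0. Among the 5, TNFAIP3 differed most. It encodes A20, a ubiquitin-editing enzyme that shuts off NF-κB signaling (ENSG00000118503, chr6:137867214-137883312, plus strand). Its counts were 4953 in FFA and 2677 in FFA + 9-cis-RA, that is 1.81-fold lower, with a log2 value of -0.86 (interval -0.93 to -0.79). BIRC3 encodes cIAP2, a ubiquitin ligase of the TNF receptor complex (ENSG00000023445, chr11:102317450-102339403, plus strand). It had 563 and 366 counts, a value of -0.59 (interval -0.79 to -0.40). The other 3 genes of the group were nearer to 0. TNIP1, whose product binds A20, had 3676 and 3404 counts, a value of -0.08. TRAF1, a TNF receptor adaptor, had 305 and 348 counts, and TNFAIP2 had 157 and 175. The intervals of TRAF1 and TNFAIP2 held 0, that of TRAF1 only with DESeq2 size factors. NFKBIA and TNFAIP3 are both known NF-κB targets with κB letters before their starts, and the part of these letters in their values was not tested. NFKBIA had 1.20 counts per TNFAIP3 count in FFA and 2.34 in FFA + 9-cis-RA, a 1.95-fold difference (exact 95% interval 1.84 to 2.07). Such a ratio of 2 genes within a library does not depend on the scaling. This pair and the 3 others below were chosen after their values were seen.

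The chemokine members were led by 2 genes. CCL20, which attracts cells bearing the receptor CCR6, had 145 TPM (a level per length: counts divided by exonic length and scaled to the same sum in each library) in FFA and 94.1 TPM in FFA + 9-cis-RA. CX3CL1, also called fractalkine, a chemokine anchored in the membrane, had 62.1 and 54.4 TPM. Together they made up 94.4% of the summed TPM of the 10 chemokine members in FFA and 89.8% in FFA + 9-cis-RA. CCL20 (ENSG00000115009, chr2:227805739-227817564, plus strand) had 4847 and 2900 counts, or 1.64-fold fewer after scaling, with a log2 value of -0.71 (interval -0.78 to -0.65). CX3CL1 had 7770 and 6267 counts, a smaller difference of -0.28 (interval -0.33 to -0.23). CCL2, which attracts monocytes, had 0 counts in FFA and 1 in FFA + 9-cis-RA. With 0 counts the limit is 3 counts, which is 0.0493 CPM in FFA and 0.0520 CPM in FFA + 9-cis-RA, so no difference in CCL2 was detectable at this depth.

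Of the 7 CXC chemokine members, 6 lie in a cluster of 359 kb on chromosome 4, and 2 of these went opposite ways. CXCL8 encodes interleukin-8, a neutrophil attractant, and lies at one end (ENSG00000169429, chr4:73740541-73743716, plus strand). Its counts were 422 in FFA and 630 in FFA + 9-cis-RA, a log2 difference of 0.60 (interval 0.43 to 0.79). CXCL2, another neutrophil attractant, lies at the other end (ENSG00000081041, chr4:74097040-74099196, minus strand). It had 85 and 41 counts, a value of -1.01 (interval -1.60 to -0.47), which was -0.99 with TMM factors and -0.96 with total-count scaling. CXCL8 had 4.96 counts per CXCL2 count in FFA and 15.4 in FFA + 9-cis-RA, a 3.09-fold difference (exact 95% interval 2.06 to 4.70). Per CCL20 count, CXCL8 had 0.0871 counts in FFA and 0.217 in FFA + 9-cis-RA, a 2.49-fold difference (interval 2.18 to 2.85).

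The genes between CXCL8 and CXCL2 had few counts or none. CXCL1 had 0 counts in FFA and 8 in FFA + 9-cis-RA, too few for the count minimum. Its 8 counts, taken as exact, were 2.72-fold above the 3 counts that a count of 0 allows in the FFA library. With the counting error of both libraries its exact interval began at a log2 fold change of 0.80. CXCL3 had 6 and 11 counts with an interval from -0.66 to 2.62, and CXCL5 and CXCL6 had 0 in both libraries. The platelet chemokine genes PF4, PPBP and PF4V1, which lie among them, had 0 counts in both libraries too. CXCL1, CXCL2 and CXCL3 are close in sequence, and reads that fit several genes were not counted, so these 3 are uncertain. CXCL10, an interferon-induced chemokine outside the cluster, had 5 and 3 counts, below the minimum.

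**Figure D2:**
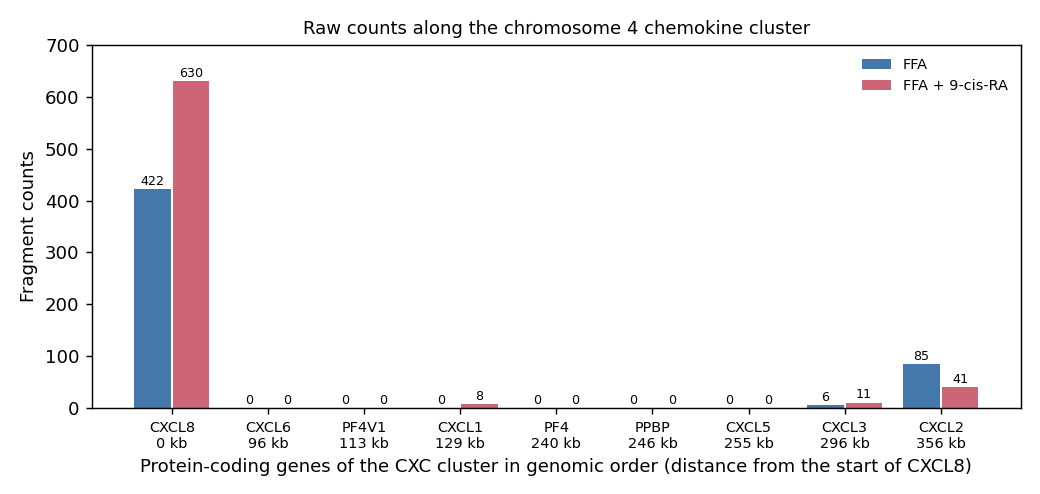
Raw fragment counts of the 9 protein-coding genes in the chromosome 4 CXC cluster, in genomic order with the distance from the start of CXCL8 in kb, in 1 FFA library (blue) and 1 FFA + 9-cis-RA library (red). CXCL8 at the left end is higher in FFA + 9-cis-RA (422 and 630 counts), CXCL2 at the right end is lower (85 and 41 counts), and 5 genes between them are at 0 in both libraries.

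The cytokine members held the lowest value of all. IL1RN encodes the IL-1 receptor antagonist, a secreted protein that occupies the IL-1 receptor without signaling. The gene (ENSG00000136689, chr2:113107214-113134016, plus strand) had 699 counts in FFA and 236 in FFA + 9-cis-RA, or 10.2 and 3.75 TPM. Its log2 fold change was -1.53 (interval -1.76 to -1.32), or 2.90-fold lower, and it was the single member whose whole interval lay below -1. The IL-1 receptor itself was close to 0: IL1R1 had 6223 and 5912 counts, a value of -0.05 with an interval that held 0 (-0.10 to 0.01). The receptor chain IL1RAP had 740 and 667 counts, also with an interval that held 0. IL1R1 had 8.90 counts per IL1RN count in FFA and 25.1 in FFA + 9-cis-RA, a 2.81-fold difference (exact 95% interval 2.41 to 3.29).

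TNF, the cytokine that activates NF-κB through its receptors, was rare. The gene (ENSG00000232810, chr6:31575565-31578336, plus strand) had 17 counts in FFA and 36 in FFA + 9-cis-RA, or 0.483 and 1.11 TPM. The difference was 1.07 on the log2 scale (interval 0.24 to 2.03), and 0.92 with a pseudocount of 5. IL32, a proinflammatory cytokine gene that mice lack, was the second most abundant member at 154 TPM in FFA and 140 TPM in FFA + 9-cis-RA. Its 10353 and 8677 counts gave a value of -0.23 (interval -0.27 to -0.19). IL18 had 126 and 113 counts with an interval that held 0.

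The 4 receptors of the IL-1 and TNF families had a median log2 fold change of -0.01, which was 0.04 with total-count scaling. TNFRSF1A alone had an interval clear of 0, and it lay above 0, as for 22.5% of all compared genes. TNFRSF1A encodes TNF receptor 1 and had 5785 counts in FFA and 7403 in FFA + 9-cis-RA, a value of 0.38 (interval 0.33 to 0.43). LTBR, the lymphotoxin β receptor gene, lies near it on chromosome 12 (chr12:6375045-6391571, against chr12:6328757-6342114 for TNFRSF1A). It had 8457 and 8456 counts, a value of 0.03 with an interval that held 0, and its interval was above 0 with TMM factors and with total-count scaling.

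In the IL-6 arm, the receptors and STAT3 lay close to 0 and the feedback gene SOCS3 was higher. IL6R, the IL-6 receptor gene, had 4494 and 4221 counts, a value of -0.06 (interval -0.12 to -0.0019). IL6ST, which encodes the signaling chain gp130, had 9344 and 9038 counts, and STAT3 had 5733 and 5653. The intervals of IL6ST and STAT3 held 0. SOCS3, the STAT3-induced inhibitor of this pathway (ENSG00000184557, chr17:78356778-78360077, minus strand), differed more. It had 80 and 137 counts, or 1.39 and 2.59 TPM, with a log2 fold change of 0.80 (interval 0.40 to 1.22).

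TLR2 was the single Toll-like receptor member with more than 20 counts in a library. TLR2, which recognizes bacterial lipoproteins (ENSG00000137462, chr4:153684070-153705702, plus strand), had 327 counts in FFA and 215 in FFA + 9-cis-RA. Its log2 fold change was -0.58 (interval -0.83 to -0.32). TLR6, a partner of TLR2 (ENSG00000174130, chr4:38823715-38856817, minus strand), had 9 and 20 counts. TLR4, the endotoxin receptor, had 7 and 5, and TLR3, the receptor of double-stranded RNA, had 1 in each. The flagellin receptor TLR5 had 0 counts in both libraries. TLR3 and TLR5 were below the count minimum, and the interval of TLR4, from -2.46 to 1.41, shows how little its counts could resolve.

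The co-receptors of TLR4 went opposite ways at low counts. LY96 encodes MD-2, the endotoxin-binding partner of TLR4 (ENSG00000154589, chr8:73991392-74029079, plus strand). It had 101 counts in FFA and 38 in FFA + 9-cis-RA, a log2 value of -1.36 (interval -1.96 to -0.83), or 2.57-fold lower. CD14, which hands endotoxin to this complex (ENSG00000170458, chr5:140631728-140633701, minus strand), had 9 and 20 counts, the same counts as TLR6. The values of CD14 and TLR6 were both 1.10, with intervals that held 0 (-0.02 to 2.50) but cleared it with total-count scaling, and 0.86 with a pseudocount of 5. LY96, CD14 and TLR2 are also expressed by macrophages. The summed macrophage markers were 97.9 CPM in FFA and 58.8 CPM in FFA + 9-cis-RA. LYZ alone gave 96.7 and 57.8 CPM of this, so the sum describes 1 gene and not the marker list. The part of macrophage genes in these values was not tested.

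The 3 genes for adaptors and a kinase below the receptors were well counted, with a median log2 fold change of -0.24. Every interval lay below 0, as for 25.7% of all compared genes. Each value lay inside the central 95% of genes of similar count, a range described below. MYD88, the adaptor of most TLRs and of the IL-1 receptor, had 8971 counts in FFA and 6524 in FFA + 9-cis-RA, a value of -0.43 (interval -0.48 to -0.39). IRAK1, the kinase recruited by MYD88, was the most abundant member at 312 TPM in FFA and 294 TPM in FFA + 9-cis-RA. Its 25641 and 22246 counts gave a value of -0.18 (interval -0.20 to -0.15). TRAF2, a TNF receptor adaptor, had 1570 and 1305 counts, a value of -0.24 (interval -0.35 to -0.13).

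Of the adhesion molecules and effector enzymes, ICAM1 alone was abundant. ICAM1, which binds leukocyte integrins, had 7391 counts in FFA and 8003 in FFA + 9-cis-RA, a value of 0.14 (interval 0.10 to 0.19). VCAM1, the other adhesion molecule, and PTGS2, the inducible cyclooxygenase gene, had 0 counts in both libraries. The matrix protease gene MMP9 had 11 counts in each, with an interval from -1.32 to 1.37.

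**Figure D3:**
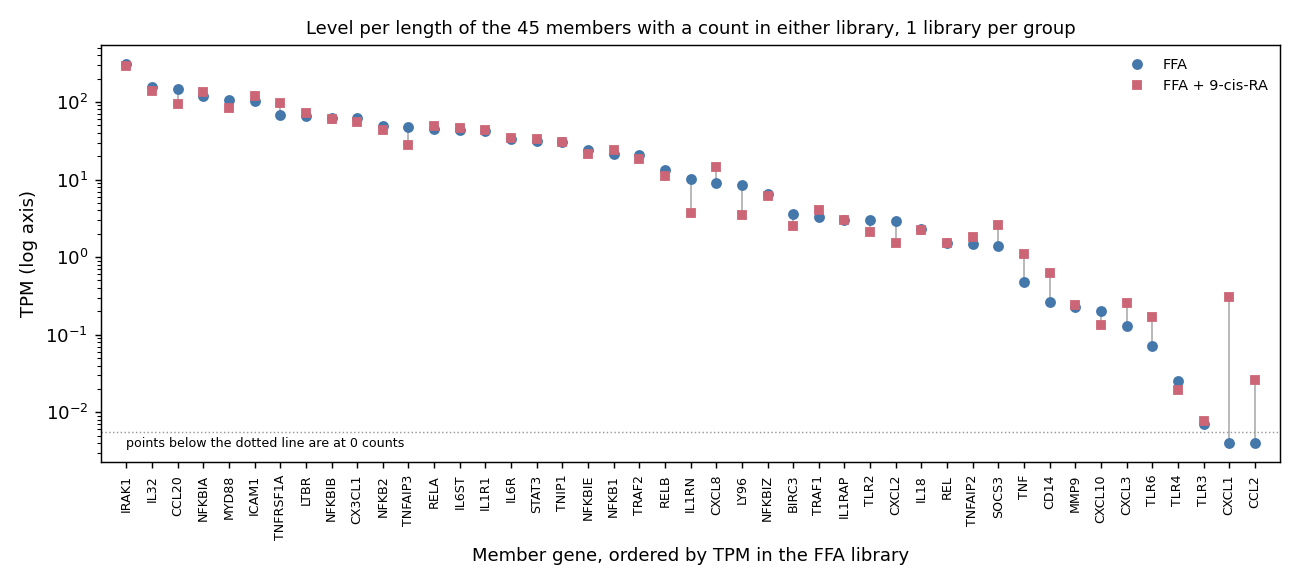
TPM on a log axis of the 45 members with a count in either library, ordered by their level in FFA, for 1 FFA library (blue circles) and 1 FFA + 9-cis-RA library (red squares). Levels run from 312 TPM for IRAK1 to 0 for CXCL1 and CCL2 in FFA. The widest gaps among members above 1 TPM in FFA belong to IL1RN and LY96.

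Across all members the level per length spanned the range from IRAK1 down to CXCL5, CXCL6, TLR5, VCAM1 and PTGS2, which had 0 counts in both libraries. After IRAK1, IL32, CCL20 and NFKBIA, the next by TPM in FFA were MYD88 at 107 and ICAM1 at 102. In FFA + 9-cis-RA, ICAM1 at 120 TPM stood above MYD88 at 84.6 TPM. With 1 library per group, the spread of these levels between cultures is unknown. In all, 9 members were too lowly counted to compare: the 5 just named and CXCL1, CXCL10, CCL2 and TLR3. A further 6 were compared with fewer than 100 counts over both libraries, namely CXCL3, TNF, TLR4, TLR6, CD14 and MMP9.

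Small fold changes of well-counted genes are best read beside other genes of the same depth. The 20431 compared genes were ordered by mean normalized count in 20 bins, and the central 95% of log2 fold changes was taken in each bin. Of the 41 compared members, 35 lay inside the range of their bin. IL1RN, TNFAIP3, CCL20 and LY96 lay below it, and CXCL8 and TNFRSF1A lay above it. LY96, at -1.36 against a lower limit of -1.34, and TNFRSF1A, at 0.38 against an upper limit of 0.38, were close to the edge. CXCL8, at 0.60 against an upper limit of 0.57, lay near a border between bins, and the neighbouring bin of lower counts had a limit of 0.63 that would have held it. Among genes with at least 100 counts, 9 of 35 members (25.7%) differed by at least 0.5 in either direction, against 11.3% of 14411 genes.

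**Figure D4:**
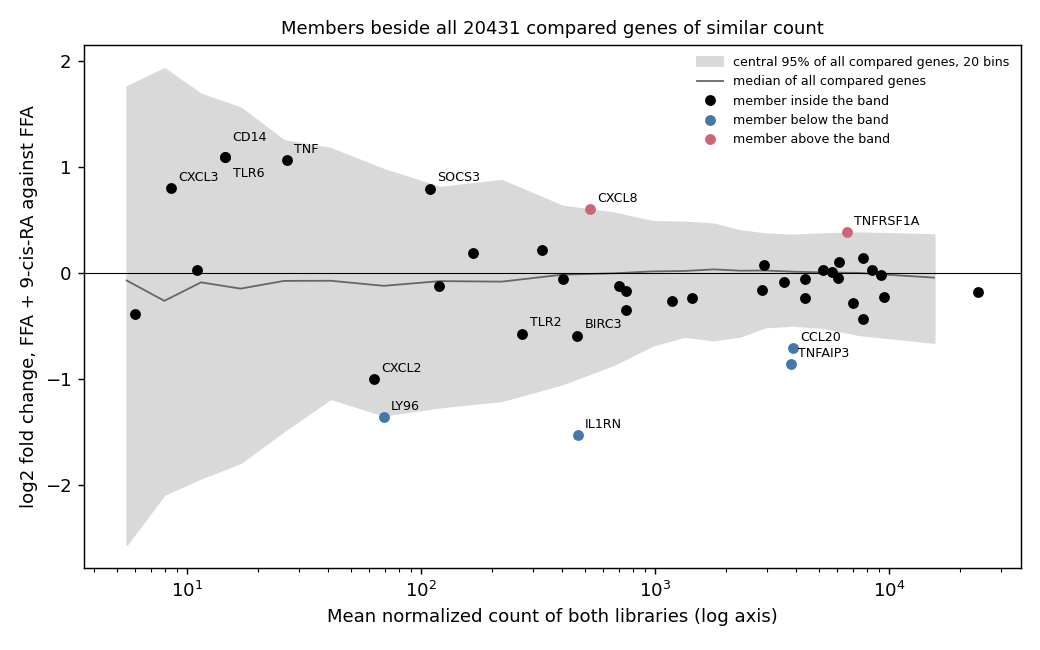
Log2 fold change of FFA + 9-cis-RA against FFA over the mean normalized count (log axis) for the 41 compared members (points) and all 20431 compared genes (gray band: central 95% in 20 bins of similar count, line: median), 1 library per group. IL1RN, TNFAIP3, CCL20 and LY96 lie below the band and CXCL8 and TNFRSF1A above it.

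Other genes of the same pathways were taken from a separate list of 92 symbols, of which 91 had an entry and 65 could be compared. None was above 1, against 3.37% of all compared genes, and 5 were below -1, or 7.69% past 1 in size against 8.28% of all compared genes. Their median log2 fold change was -0.01, against -0.08 for the members. The 11 genes of the IκB kinase complex and its upstream regulators ranged from -0.41 to 0.43. The catalytic subunit genes CHUK (IKKα) and IKBKB (IKKβ) had values of 0.15 and -0.05, and IKBKG, the gene of the regulatory subunit NEMO, had the highest, with 593 and 782 counts and an interval of 0.27 to 0.58. IKBKG has a near-identical pseudogene, so its count is uncertain. All 5 JAK kinase and other SOCS genes were above 0, with 4 intervals clear of it (22.5% of all compared genes), led by SOCS2 with 319 and 446 counts, a value of 0.51 (interval 0.30 to 0.72). BCL2L1, an NF-κB target that encodes the survival protein BCL-XL, had 21604 and 25637 counts, a value of 0.27.

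The other named pathway genes were lower in FFA + 9-cis-RA. PLAU, the urokinase gene, had 176 and 74 counts, a value of -1.21 (interval -1.63 to -0.82). BCL2A1, a survival gene of the BCL2 family, had 64 and 25 counts, a value of -1.30 (interval -2.06 to -0.64). SIGIRR, an inhibitory receptor of the IL-1 family, had 109 and 51 counts, a value of -1.05 (interval -1.58 to -0.58). The other 2 genes below -1, CXCL11 and CSF2, had at most 13 counts and intervals that held 0. Of the other Toll-like receptors, TLR1 and TLR7 had at most 4 counts in a library, and TLR8, TLR9 and TLR10 had 0 in both. Another annotated gene covers 86.3% of the exonic bases of TLR9 on the same strand. Reads shared by both were not counted, so the 0 of TLR9 is uncertain. The 12 other NF-κB targets that were compared had a median of -0.43, with 4 intervals above 0 and 6 below (22.5% and 25.7% of all compared genes).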

How the data were processed

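RNA of HepG2 cells was sequenced in 2 libraries, 1 per group. Raw counts of fragments per gene were deposited. Per the file headers they were made by featureCounts (version 2.0.1, reverse strand), which required both mates to be mapped at an accepted distance. Reads that fit several places or genes were left out, which lowers near-identical and overlapping genes. The labels give GRCh38, and the aligner is not given in the sources used here. Symbols came from a table of Ensembl identifiers. SOD2 had no match and was not used.

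Size factors came from DESeq2 version 1.42.0 and TMM factors from edgeR version 4.0.16. Intervals were exact (Clopper-Pearson, 95%), and intervals and floors of 3 counts cover counting error only. TPM used the exonic lengths in the files. Python 3.11.15 with scipy 1.17.1 was used, and the steps were checked on simulated data with counting error alone. That check holds no variation between cultures and cannot show how well the intervals cover it. No model could be fitted, so no p-value is given.

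The members and the gene lists were chosen with earlier results of these data known. All members are named. Full statistics were given to members past 1 in size, or at least 0.5 with an interval clear of 0. Other pathway genes were named when past 1 with at least 50 counts, or among the 3 highest or 3 lowest by the interval bound nearest to 0. Examples beyond this rule were chosen after their values were seen. Promoter sequences are from RefSeq (GRCh38.p14). Protein sequences were not used here. TMM factors, library totals, pseudocounts of 0.1 or 5, a count minimum of 1 or 50 and calls by the whole interval were tried as alternatives.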

Additional observations from a re-analysis of the deposited data

How the results depend on the processing

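The members' median stayed between -0.13 and -0.03 under the scaling, pseudocount and count-minimum alternatives. Of 164 values of single members under another scaling or pseudocount, 157 stayed inside their counting interval. The sign changed in 2 cases, IL1R1 and IL6ST with total-count scaling, and the main intervals of both held 0. The medians of the IL-1 and TNF receptors and of the IL-6 arm, both -0.01, were 0.01 with TMM factors and 0.04 with total-count scaling. The handling of rarely counted genes moved the numbers past 1. When the pseudocount was 5, 0 members were above 1, with 341 genes above 1 and 594 below -1 among all genes, with 2 other pathway genes below -1. Without a filter beyond 1 count there were 5 members above 1, 3771 and 2493 of all genes, and 2 and 10 other pathway genes. With at least 50 counts there were 1 member above 1, 153 and 361 of all genes, and 3 other pathway genes below -1. With the whole interval past 1 there were 0 members above and 1 below, 79 and 190 of all genes, and 0 other pathway genes below. Among protein-coding genes alone 270 were above and 446 below. Members with the interval above 0 numbered 13 with total-count scaling. Counting members by their interval was added after seeing the data. With 1 library per group no library could be left out, and the spread between cultures was not measured.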
